A study of Mus musculus with 2 samples.

Results

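The genes described here encode the ligands and receptors that steer growing axons: semaphorins with their plexin and neuropilin receptors, ephrins with their Eph receptors, netrins with Dcc and the Unc5 receptors, and Slits with the Robo receptors. They were taken by symbol from the protein-coding genes of chromosomes 1 to 19, which gave 68 of 20807 genes: 34 ligands, 32 receptors, and Unc50 and Unc5cl. The last pair match the naming rule but are not guidance receptors: Unc50 encodes a Golgi protein and Unc5cl a protein of inflammatory signalling that resembles the Unc5 family. Guidance genes of the X chromosome fall outside the rule and were not used here. Chromatin accessibility was measured by DNase-seq, in which DNase I cuts DNA that is not wrapped in nucleosomes, in left cerebral cortex tissue from 2-month-old B6CASTF1/J females, an F1 cross between the C57BL/6J and CAST/EiJ strains. There were 2 libraries, replicates 1 and 2, of 1 group, so no groups could be compared and no test of a condition was possible. The labels give the libraries separate female numbers but the same donor entry, so the spread between them may be partly technical.

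Axons find their targets by reading cues on other cells and in the matrix around them. Secreted cues such as netrins, Slits and class 3 semaphorins act at a distance, whereas ephrins and the transmembrane semaphorins act at cell contact, and binding to a receptor attracts or repels the growth cone through the cytoskeleton. In the adult cortex, where long-range axon growth is over, many of the same proteins are known to act at synapses, on dendritic spines and in blood vessels.

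The tissue was described with genes that mark cell types. A shared promoter peak, meaning overlapping peaks of both libraries within 500 bp of the annotated outermost 5′ end of the gene, was found at 5 of 6 markers of excitatory neurons, 4 of 4 of inhibitory neurons, 3 of 4 of astrocytes and 2 of 3 of oligodendrocytes. It was found at 2 of 5 endothelial markers, 1 of 3 mural markers, 1 of 4 meningeal markers, 0 of 4 microglial markers and 0 of 4 markers of tissues outside the brain. Over all protein-coding genes the share was 59.8%. Markers were few, and those of microglia scored the same as those from outside the brain. The counts therefore cannot show which cell types were present. Replicate 1 had 128323 peaks and 340109 footprints, and replicate 2 had 119651 peaks and 284674 footprints. A footprint is a short stretch inside accessible DNA that is protected from cutting. In bulk tissue, weak accessibility in many cells and strong accessibility in few cells cannot be told apart, and how far each cell type contributes to the values below was not tested.

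Most guidance genes had an accessible promoter, but a weak one. A shared promoter peak was present at 58 of 68 genes (85.3%), against 59.8% of all protein-coding genes; such promoters are called open here, and the others closed. Taken singly, replicate 1 had a promoter peak at 59 of 68 genes, against 62.2% of all genes, and replicate 2 at 60, against 61.5%. By role, 28 of 34 ligands and 29 of 32 receptors had one. The signal is the value given for each peak in the deposited lists, and its unit is not stated. It was read as a cut density scaled to read depth, which is inferred from its fixed step. This signal had a median of 1.88 in replicate 1 and 1.69 in replicate 2 over the 58 guidance promoters. Over all 12437 protein-coding genes with a shared promoter peak the medians were 2.87 and 3.12, so the guidance genes lay lower in each library. Of the 58 promoters, 10 exceeded the median of all genes, 2 (3.45%) lay above the upper quartile of all genes (4.45) and 25 (43.1%) below the lower quartile (1.6).

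**Figure D1:**
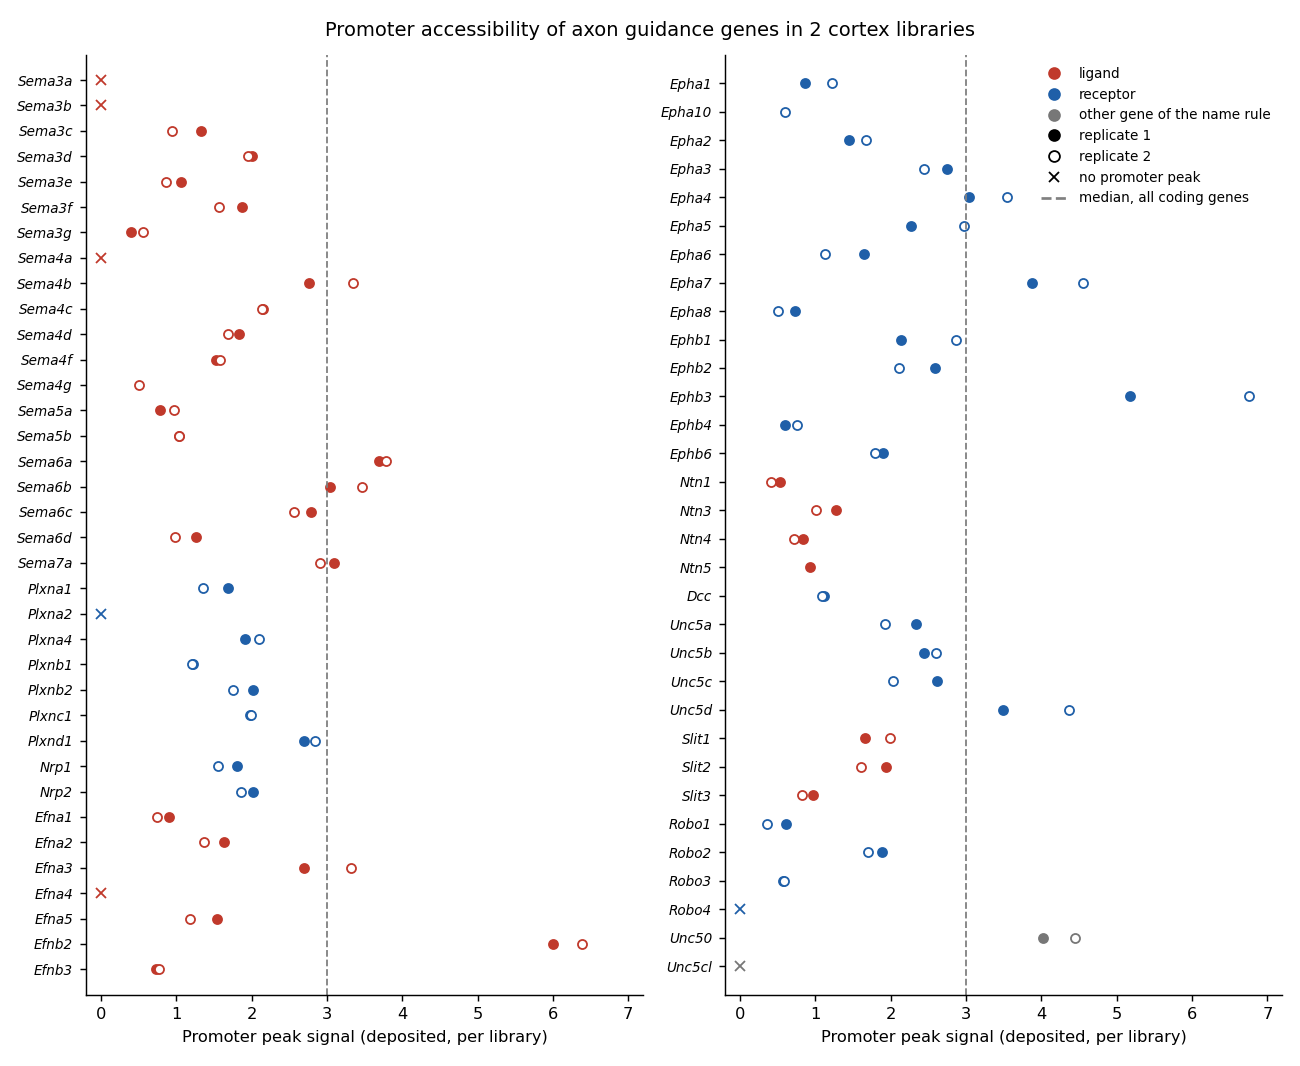
Promoter peak signal (horizontal axis, deposited units) of each of the 68 genes, grouped by family down the page, with filled points for replicate 1, open points for replicate 2 and a cross where neither library had a promoter peak. Most points lie left of the dashed line, the median of all protein-coding genes with a shared peak (3.01, mean of 2 libraries), and Efnb2 and Ephb3 lie farthest to the right.

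Efnb2 had the strongest promoter among the ligands. It is a transmembrane ephrin that also signals back into the cell that carries it (chromosome 8, 8617434 to 8661242 of mm10, minus strand), and had a promoter signal of 6.00 in replicate 1 and 6.39 in replicate 2 (6.20 ± 0.276; SD, n = 2). The other ligands among the 12 strongest promoters were membrane-bound too. Sema6a, a transmembrane ligand of A-type plexins, had 3.69 and 3.78, and Sema6b, of the same class, had 3.04 and 3.47. Sema4b, a transmembrane semaphorin, had 2.76 and 3.34, and Efna3, an ephrin held in the membrane by a lipid anchor, had 2.70 and 3.31. Sema7a, the lipid-anchored semaphorin that binds Plxnc1, had 3.10 and 2.91. All 5 lay well below Efnb2 in both libraries.

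No secreted ligand was among the 12 strongest promoters. The 5 class 3 semaphorins with a shared promoter peak, Sema3c, Sema3d, Sema3e, Sema3f and Sema3g, had a median signal of 1.13 (mean of 2 libraries), and the highest of them, Sema3d, had 2.00 in replicate 1 and 1.95 in replicate 2. Sema3g, a secreted semaphorin best known from blood vessels, had 0.407 and 0.557. Ntn1, the netrin that attracts commissural axons through Dcc, had 0.538 and 0.418 at its outermost start. The netrins Ntn3 and Ntn4 also had shared promoter peaks, and the 3 open netrins had a median of 0.777, the lowest of the ligand families. Slit1, Slit2 and Slit3, the secreted repellents read by Robo receptors, were all open, with a median of 1.77.

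The remaining open ligand promoters had means above that of Ntn1 and below that of Sema7a. They belonged to Sema4c, Sema4d and Sema4f among the class 4 semaphorins, Sema5a and Sema5b, whose class carries thrombospondin repeats, and Sema6c and Sema6d. Efna1, Efna2 and Efna5, all lipid-anchored, and Efnb3, a transmembrane ephrin, were open as well. Efnb3 had 0.736 in replicate 1 and 0.768 in replicate 2, against 6.00 and 6.39 for Efnb2.

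Among receptors, Ephb3 stood highest. Ephb3, a receptor tyrosine kinase for B ephrins (chromosome 16, 21204755 to 21223305, plus strand), had 5.17 in replicate 1 and 6.76 in replicate 2 (5.97 ± 1.12; SD, n = 2). That spread is larger than its distance from Efnb2, so the pair could not be ranked. Epha7, a receptor of A ephrins, had 3.87 and 4.55, and Epha4, which binds ephrins of both types, had 3.04 and 3.54. Unc5d, a netrin receptor of the repulsive Unc5 family that also binds FLRT proteins, had 3.50 and 4.37. Plxnd1, the plexin that binds Sema3e, had 2.69 and 2.85. The netrin receptors Unc5a, Unc5b, Unc5c and Dcc were open too, and the 5 genes of that family had a median of 2.32, against 0.777 for the open netrins.

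Of the 3 open Robo receptors, 2 had weak promoters. Robo1, a receptor of Slits (chromosome 16, 72308306 to 73046095), had 0.606 in replicate 1 and 0.355 in replicate 2 at its outermost start (0.480 ± 0.177; SD, n = 2), which is within its spread of the lowest promoters, those of Ntn1 and Sema3g. Robo3, a divergent Robo known for letting commissural axons cross the midline, had 0.576 and 0.586, and Robo2 had 1.88 and 1.70. Epha8 had 0.736 and 0.504, and Ephb4, the receptor of Efnb2 best known from venous endothelium, had 0.596 and 0.759. The other open receptor promoters were those of Epha1, Epha2, Epha3, Epha5, Epha6, Ephb1, Ephb2 and Ephb6, of Nrp1 and Nrp2, the co-receptors of class 3 semaphorins, and of Plxna1, Plxna4, Plxnb1, Plxnb2 and Plxnc1. Their means lay above that of Epha8 and below that of Plxnd1, with 1.69 for Nrp1 and 1.93 for Nrp2. Unc50, which only shares letters with the Unc5 genes, had 4.03 and 4.45.

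At 57 of 58 promoters the libraries lay within 1.5-fold of each other. The 5 promoters that differed most were those of Robo1, with a log2 ratio of replicate 1 over replicate 2 of 0.77, Epha8 (0.55), Epha6 (0.54), Epha1 (-0.50) and Sema3c (0.50). Replicate 1 was higher at 32 promoters and replicate 2 at 26. Robo1 is the promoter past 1.5-fold, and all 5 had means under the median of the guidance promoters, 1.78.

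The weak promoters were not poor in CpG dinucleotides. Within 500 bp of the start, the 58 open guidance promoters had a median of 68.5 CpGs, against 64 for all open protein-coding promoters. The genes were then split at 30 CpGs, a value chosen after the distribution was seen. At least 30 were found at 58 of 68 guidance genes, against 12195 of 20807 protein-coding genes. With at least 30 CpGs, 56 of 58 guidance promoters were open, against 92.2% of all genes of that kind. With fewer than 30 CpGs, 2 of 10 were open, Robo1 and Sema3g, against 13.9% of all such genes. Within each class the open share was thus closer to that of all genes than the 85.3% against 59.8% without classes. Among open promoters with at least 30 CpGs the median signal was 1.81 for guidance genes and 3.26 for all genes, so the lower signal was also present within this CpG class.

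**Figure D2:**
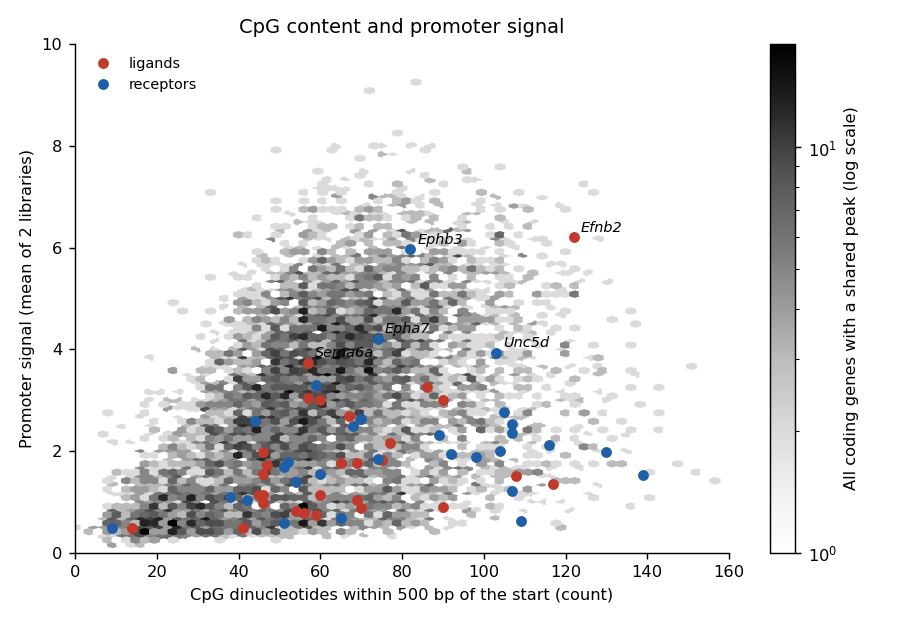
Promoter signal (vertical axis, mean of 2 libraries) against the number of CpG dinucleotides within 500 bp of the start (horizontal axis), with red points for guidance ligands, blue points for receptors and grey cells for all protein-coding genes with a shared promoter peak, 23 of which lie outside the axes (160 CpGs, signal 10). The guidance genes spread over the CpG range of other open promoters (medians of 68.5 and 64) but mostly lie low, apart from labelled genes such as Efnb2 and Ephb3.

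The letters upstream of the strongest and of closed starts show the difference in CpG content. The 150 bases before the start of Efnb2 (chr8:8661243-8661392, minus strand) held 19 CpGs, those of Ephb3 (chr16:21204605-21204754, plus strand) held 9, and those of Robo4 (chr9:37401747-37401896, plus strand), whose promoter was closed, held 1. Plxna2 is shown at its coding start (chr1:194619675-194619824, plus strand), which was open and held 15, and at its outermost annotated end (chr1:194618068-194618217, plus strand), which was closed and held 2. All are mm10 reference letters from RefSeq's GRCm38.p6 assembly, 5′ to 3′ in the direction of the gene, with CpGs in capitals.
Efnb2: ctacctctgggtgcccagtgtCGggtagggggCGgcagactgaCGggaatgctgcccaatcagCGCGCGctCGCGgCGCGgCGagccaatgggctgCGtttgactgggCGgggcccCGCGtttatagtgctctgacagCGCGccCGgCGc
Ephb3: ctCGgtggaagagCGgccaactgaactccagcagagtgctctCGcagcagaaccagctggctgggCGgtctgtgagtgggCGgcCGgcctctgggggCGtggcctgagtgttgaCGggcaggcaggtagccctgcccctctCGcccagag
Plxna2 coding start: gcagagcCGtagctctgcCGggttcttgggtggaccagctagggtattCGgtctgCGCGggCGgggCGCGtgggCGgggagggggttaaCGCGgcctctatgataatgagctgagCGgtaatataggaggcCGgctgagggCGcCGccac
Plxna2 outermost end: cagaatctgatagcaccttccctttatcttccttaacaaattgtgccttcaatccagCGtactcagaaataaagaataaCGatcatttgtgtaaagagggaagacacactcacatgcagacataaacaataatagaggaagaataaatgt
Robo4: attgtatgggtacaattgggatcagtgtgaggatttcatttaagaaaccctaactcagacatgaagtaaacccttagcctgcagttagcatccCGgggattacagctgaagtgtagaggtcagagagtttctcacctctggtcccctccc

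Of the 10 genes without a shared promoter peak, 3 were open at another coding start and 3 had a peak in 1 library only. Plxna2, the receptor for class 6 and, with neuropilins, class 3 semaphorins, had no peak at its outermost end, which belongs to a non-coding transcript. At its coding start, 1607 bp downstream, it had 3.63 in replicate 1 and 3.74 in replicate 2 (3.69 ± 0.0763; SD, n = 2), more than any plexin at its outermost start. Sema3a, the secreted repellent that collapses growth cones through Nrp1, had its highest signal at a coding start 273583 bp inside its annotated span, with 1.37 and 1.12. Sema4a, a transmembrane semaphorin, had 1.03 and 1.04 at a start 2306 bp downstream. Counting every coding start, 61 of 68 guidance genes had a shared peak, against 63.9% of all genes.

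The 3 promoters seen in a single library were weak. Ntn5 had a signal of 0.935 in replicate 1 and no peak in replicate 2. Epha10, an Eph receptor without kinase activity, had 0.595 in replicate 2 and none in replicate 1, and Sema4g had 0.509 in replicate 2 and none in replicate 1. Efna4, Robo4, Sema3b and Unc5cl had no promoter peak in either library and no open coding start. Robo4 is known from vascular endothelium, and 2 of 5 endothelial markers had a shared promoter peak; the part of cell composition in this was not tested. Closed promoters had a median of 16.5 CpGs, but Sema4g with 67 and Efna4 with 58 were as CpG-rich as open ones.

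Several genes were more accessible at an internal start than at the outermost one. Robo1 had 2.01 in replicate 1 and 1.67 in replicate 2 at a coding start 354843 bp downstream, against 0.606 and 0.355 at the outermost one. Sema6d, a transmembrane semaphorin, had 1.98 and 2.04 at a start 520327 bp downstream, against 1.27 and 0.989. Sema4c had 3.52 and 4.65 at a start 823 bp downstream, against 2.16 and 2.14, and Efna1 had 1.95 and 2.22 at a start 1501 bp downstream, against 0.911 and 0.749. Ntn1 had 0.862 and 0.860 at a start 13997 bp downstream, against 0.538 and 0.418. In all 5 genes the internal start was the higher one in both libraries, but they were picked for a coding start above the outermost one. That direction was therefore fixed by the choice, and no share over all genes was computed.

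Outside promoters, the guidance loci held more accessible sites than protein-coding genes of similar length. A distal peak was a shared peak centred more than 1 kb from every annotated transcription start, within the gene body or 10 kb on either side. At least 1 was found in 64 of 68 loci, against 59.9% of all genes, with a median of 4, against 1. Since long loci hold more peaks, each count was turned into a percentile among 200 coding genes whose loci are nearest to it in length. For the 68 genes the median percentile was 66.4, against 46.0 for all genes. At or above the 75th percentile lay 32 of 68 (47.1%), against 23.5%, and at or above the 90th lay 16, against 9.76%. These are descriptions without a test, and the flanks can hold peaks that belong to neighbouring genes.

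**Figure D3:**
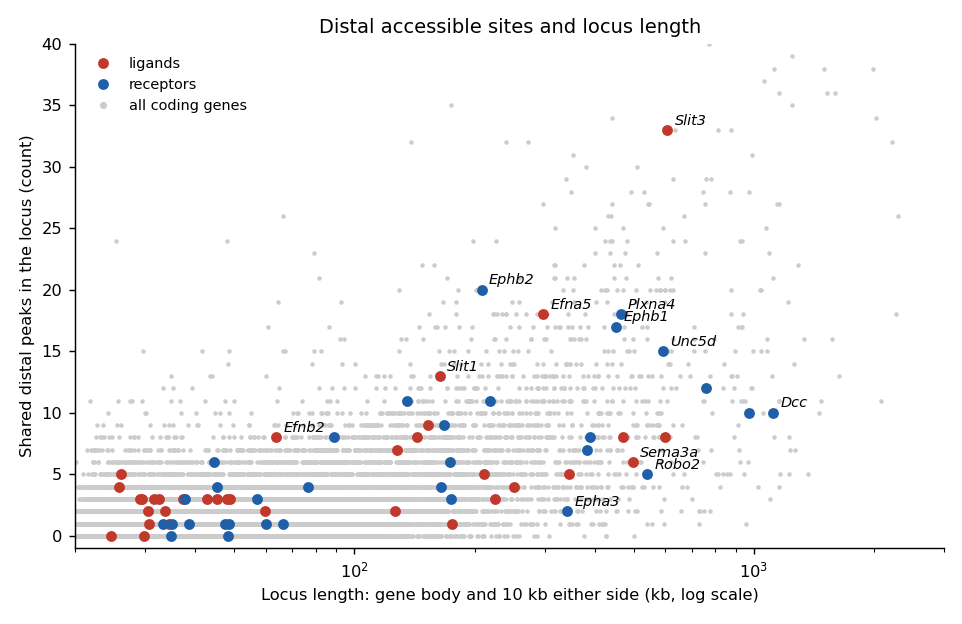
Number of shared distal peaks per locus (vertical axis) against locus length in kb (horizontal axis, log scale), with red points for guidance ligands, blue points for receptors and grey points for all protein-coding genes, 16 of which lie outside the axes (40 peaks, 3000 kb). Slit3 with 33 peaks and Ephb2 with 20 lie high for their length, whereas Epha3 with 2 and Robo2 with 5 lie low among loci of similar length.

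A few long loci held much of the total. The 12 loci with most distal peaks held 188 of 390 (48.2%). Slit3 had 33 (chromosome 11, 35121224 to 35708507), Ephb2 had 20, Efna5, a lipid-anchored ephrin, had 18, and Plxna4, a receptor of Sema6a and Sema6b, had 18. Ephb1 had 17, Unc5d 15, Slit1 13, Robo1 12, Nrp2 and Plxna2 11 each, and Dcc and Epha6 10 each. Relative to length these differ: Slit3 had a percentile of 96.8 and Ephb2 of 99, but Dcc, with a locus of 1117 kb, had 36 and Epha6, with 972 kb, had 38.3.

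Taken over all families, ligand loci had a higher median percentile than receptor loci, but not in every ligand and receptor system. The median percentile was 83.1 for the 34 ligands, with 20 at or above the 75th percentile, and 54.9 for the 32 receptors, with 12. The 7 ephrins had a median percentile of 91.8, against 48.5 for the 14 Eph receptors that bind them. Some ephrin counts rest mostly on the flanks, with 1 of 3 peaks inside the gene at Efna1, 0 of 2 at Efna2 and 1 of 5 at Efnb3. Inside the gene lay 2 of 3 at Efna3, 14 of 18 at Efna5 and 8 of 8 at Efnb2. Under the 8 alternatives the lowest percentile was 71.25 for Efna1, 37.25 for Efna2 and 75.25 for Efnb3. The 3 Slits had 95.5, with Slit2 at 29, against 56.3 for the 4 Robo receptors. The netrin system ran the opposite way, with 53.8 for 4 netrins and 67.3 for 5 netrin receptors. The 20 semaphorins and 7 plexins were close to each other, with 79.9 and 82.8. The 7 class 3 semaphorins, the secreted class, had a median of 28.5 but were split. Sema3b had 92.8, Sema3g 91.5 and Sema3f 82.8, and the others had 28.5 or less. Of the neuropilins, their co-receptors, Nrp1 had 49 and Nrp2 96.3. The 4 class 6 semaphorins, which are membrane-bound, had a median of 83.0. The highest percentiles were 99 for Ephb2, 98.8 for Efnb3, 98.5 for Plxnb1, a receptor of class 4 semaphorins, 97.3 for Efnb2, 96.8 for Slit3 and for Unc5b, 96.3 for Nrp2 and 96 for Ntn3. Of these 8, Plxnb1 and Ntn3 fell below the 75th percentile under 1 of 8 alternatives each, with percentiles of 26.8 and 34 there.

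At the other end, some genes with an open promoter had few distal sites. Epha3 (chromosome 16, 63543534 to 63864175), with promoter signals of 2.75 and 2.45, had 2 distal peaks in a locus of 341 kb and a percentile of 7.25. Sema3c, with 1 peak, had a percentile of 10.3, Robo2, with 5, had 16.8, and Sema3d, with 3, had 24. Epha1, Epha2 and Sema4c had 0 distal peaks, as did Efna4, whose promoter was closed. Epha2 had a percentile of 18.3 and Epha1 of 21.3; genes with equal counts share a rank.

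Promoter and distal accessibility did not go together in every gene. Ephb3, the receptor with the strongest promoter, had 1 distal peak and a percentile of 50.5, and Epha7 had 3 and a percentile of 30.8. Slit3 and Efnb3 had weak promoters, with means of 0.897 and 0.752, and distal percentiles of 96.8 and 98.8. Efnb2 was high on both counts, with 8 distal peaks in a locus of 63.8 kb.

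**Figure D4:**
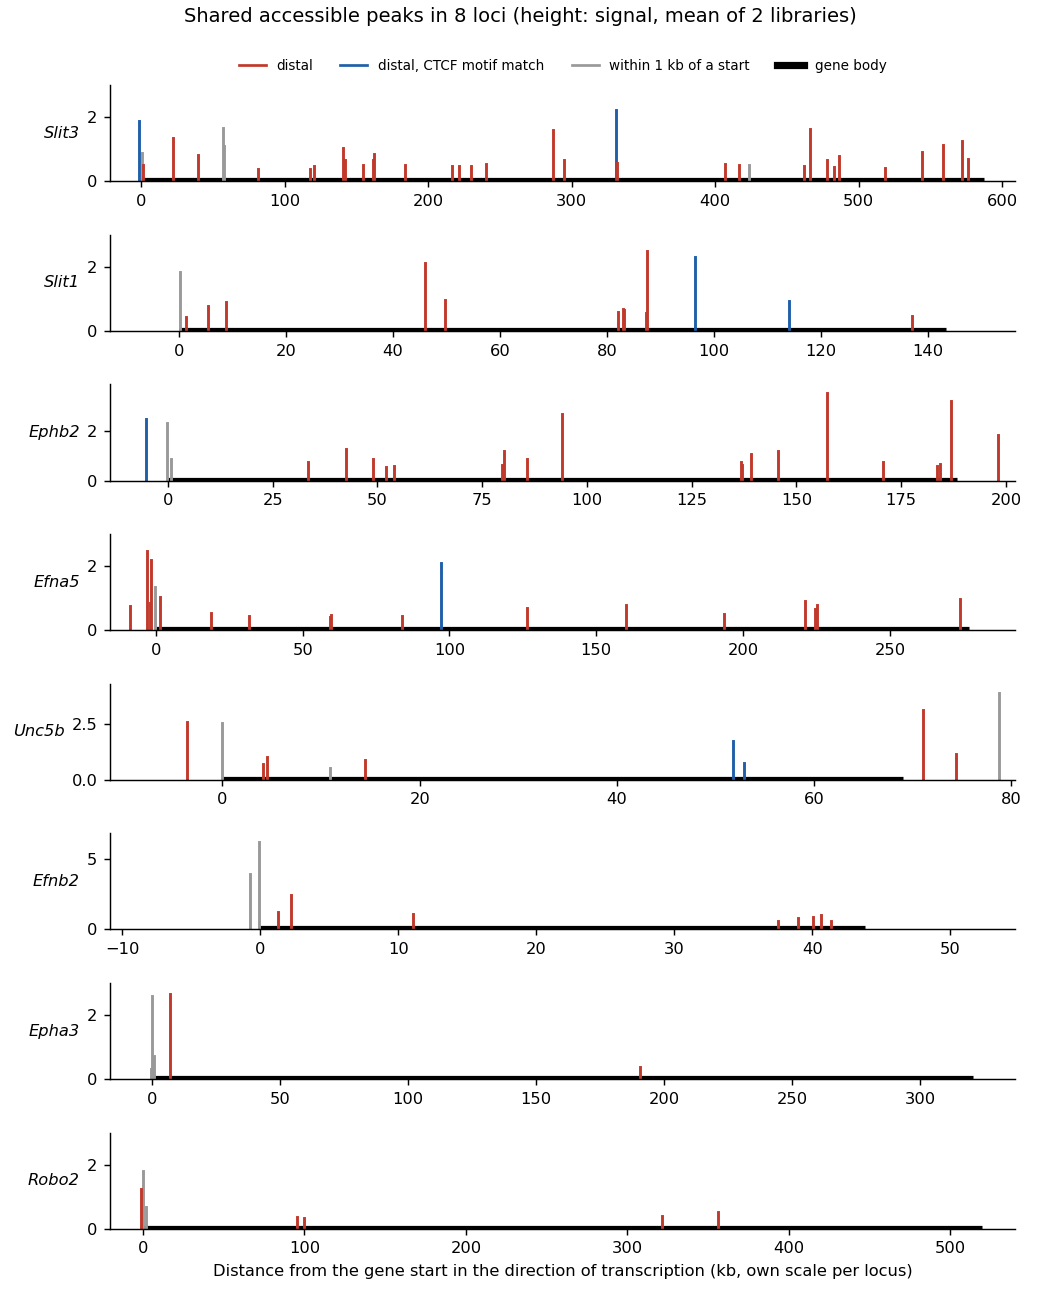
Shared peaks of 8 loci, with the distance from the gene start in kb on the horizontal axis (own scale for each locus), the signal (mean of 2 libraries) as the height of each line, and the gene body as a black bar. Slit3, Slit1, Ephb2, Efna5, Unc5b and Efnb2 carry distal peaks along the gene, Epha3 has 2 and Robo2 has 5, and blue lines mark distal peaks with a CTCF motif match.

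The distal sites were mostly intronic, and their median signal was near that of all distal peaks. The 390 counts stand for 389 separate peaks, since the neighbouring loci of Robo3 and Robo4 share 1. Of these peaks, 324 (83.3%) lay within the gene body, 37 upstream and 28 downstream. Introns held 302 (77.6%), intergenic sequence 52, coding exons 18, untranslated exons 12 and exons of non-coding transcripts 5. A guidance gene had the nearest coding start for 319 (82.0%). The window itself favours such places, since the median locus was 82.8 kb long and only 10 kb on either side was flank. Shares by place, annotation or nearest start were not computed over all distal peaks. The median signal was 0.693 in replicate 1 and 0.677 in replicate 2, against 0.649 and 0.687 for all 52731 shared distal peaks, so the guidance peaks were higher in replicate 1 and lower in replicate 2. In Slit3, 32 of 33 distal peaks were intronic, with signals between 0.381 and 2.22 (median 0.649), and in Dcc all 10 were intronic, between 0.251 and 0.936.

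The strongest distal peak of the module lay upstream of a closed promoter. It was centred 3602 bp before the start of Sema3b, a secreted semaphorin, in intergenic sequence (chromosome 9, 107612721 to 107612940), with a signal of 6.52 in replicate 1 and 8.85 in replicate 2 (7.68 ± 1.65; SD, n = 2). No annotated transcription start lay within 1 kb of it. It held 5 footprints in each library, and a match to the CRE letters TGACGTC lay under a footprint of both. In each library its signal was above that of every guidance promoter, Efnb2 and Ephb3 included.

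The strongest distal peak of the EphA receptors lay 1363 bp before the start of Epha4 (chr1:77516341-77516560), with 4.97 and 6.39 (5.68 ± 1.01; SD, n = 2), above the 3.04 and 3.54 of the Epha4 promoter itself. It held 4 footprints in each library, and 3 stretches were protected in both. The 220 bases are shown on the minus strand, the strand of Epha4, with the letters under a footprint of both libraries in capitals.
Epha4 distal peak: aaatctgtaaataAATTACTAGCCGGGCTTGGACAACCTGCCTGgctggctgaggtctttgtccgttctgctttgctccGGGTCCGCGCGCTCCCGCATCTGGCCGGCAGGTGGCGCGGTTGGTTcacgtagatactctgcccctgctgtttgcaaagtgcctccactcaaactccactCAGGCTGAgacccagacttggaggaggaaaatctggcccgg

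In the other families the strongest distal peak was weaker. For EphB receptors it lay in an intron of Ephb2 (chromosome 4, 136678561 to 136678740), with 3.11 in replicate 1 and 4.01 in replicate 2. For A ephrins it lay in an intron of Efna3 (chromosome 3, 89316901 to 89317100), with 2.94 and 3.51, and for B ephrins 2.231 kb inside Efnb2, with 2.63 and 2.29. Among semaphorins it lay in an intron of Sema5a for class 5 (3.40 and 4.10), 6.159 kb before the outermost start of Sema4a for class 4 (2.70 and 3.76), 1.518 kb before Sema6b for class 6 (1.73 and 2.30) and 4.241 kb before Sema7a (3.0 and 3.21). All but the Efnb2 peak were higher in replicate 2.

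The receptor and cue families without semaphorins or ephrins had distal peaks of similar height. For netrin receptors the strongest lay downstream of Unc5b (2.94 and 3.36), nearest to the coding start of Slc29a3, and for netrins 1.101 kb before Ntn5 within an intron of Sec1 (1.93 and 2.47). For plexins it lay 63.983 kb inside Plxna2 (2.09 and 2.57), and for neuropilins 4.817 kb inside Nrp1 (1.91 and 2.02). For Slits it lay 87.484 kb inside Slit1 (2.23 and 2.76), and for Robo receptors 296.965 kb inside Robo1 (1.61 and 1.98). Unc5cl, whose promoter was closed, had 2.93 and 4.24 in an untranslated exon.

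Sequence motifs were counted in the 150 bp around the centre of each distal peak, on both strands. CTCF, the zinc-finger factor that anchors chromatin loops, had a match in 24 of 389 peaks (6.17%, exact 95% interval 3.99 to 9.04), against 7.78% of all distal peaks. All 24 matches lay under a footprint of both libraries, as did 95% of matches over all distal peaks. The 24 peaks were spread over 19 loci. These and the next intervals cover counting error alone, and a match describes letters, not binding.

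Some matches were left out, such as those in untranslated exons or at genes outside RefSeq's promoter table. From the rest, the CTCF matches below lie in the strongest peaks by mean signal, at most 1 per gene. Each was protected in both libraries. They lie 5.293 kb before Ephb2 (chr4:136841276-136841319, minus strand) and in introns of Slit3 (chr11:35451765-35451808, minus strand), Sema5b (chr16:35628384-35628427, minus strand), Efna5 (chr17:62784085-62784128, minus strand), Robo1 (chr16:72605243-72605286, minus strand), Unc5b (chr10:60779817-60779860, plus strand), Sema4b (chr7:80215561-80215604, minus strand) and Nrp2 (chr1:62786425-62786468, plus strand). Capitals mark the CTCF match, written on the strand that holds it.
Ephb2: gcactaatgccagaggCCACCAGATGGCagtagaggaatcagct
Slit3: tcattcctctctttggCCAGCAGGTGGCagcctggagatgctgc
Sema5b: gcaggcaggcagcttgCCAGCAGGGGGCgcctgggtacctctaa
Efna5: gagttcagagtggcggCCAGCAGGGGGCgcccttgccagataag
Robo1: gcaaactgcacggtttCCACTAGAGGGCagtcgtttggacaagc
Unc5b: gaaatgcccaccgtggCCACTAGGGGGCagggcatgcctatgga
Sema4b: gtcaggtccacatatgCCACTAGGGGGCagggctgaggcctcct
Nrp2: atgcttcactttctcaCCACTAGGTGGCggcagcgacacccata
The peaks that hold them had signals of 2.21 and 2.79 at Ephb2, 2.11 and 2.33 at Slit3, and 1.44 and 1.74 at Nrp2, in replicates 1 and 2. The Robo1 site is the strongest distal peak of its family.

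Letters read by neuronal and activity-regulated factors had shares near those of all distal peaks. CAGATGG, the letters read by NEUROD factors of cortical neurons, matched in 37 peaks (9.51%, exact 95% interval 6.79 to 12.9), against 9.13% of all distal peaks. In 3 of the 37 the letters overlapped a CTCF match, and those 3 lay under a footprint of both libraries. Apart from CTCF matches, 3 of 34 (8.82%, exact 95% interval 1.86 to 23.7) did so, against 27.7% over all distal peaks. TGAGTCA or TGACTCA, read by AP-1, the Fos and Jun dimers, matched in 25 peaks (6.43%, exact 95% interval 4.20 to 9.34), against 7.32%. Of these, 2 (8%) lay under a footprint of both libraries, against 13.6% of such matches over all distal peaks. GCGTGGG, read by EGR factors, matched in 11 (2.83%), against 2.90%, and 7 of them (63.6%) lay under a footprint of both, against 40.5%. MEF2 had 2 matches (0.514%), against 0.379%. RFX, NFI and CRE had 1 each (0.257%), against 0.116%, 0.7965% and 0.702%.

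The NEUROD and AP-1 matches protected in both libraries, shown with the match in capitals, lay upstream of Sema3g in an intron of its neighbour Nisch (chr14:31215690-31215728, minus strand), in introns of Slit3 (chr11:35665157-35665195, plus strand), Sema5a (chr15:32265779-32265817, minus strand) and Ephb2 (chr4:136802613-136802651, plus strand), and downstream of Sema4f (chr6:82909277-82909315, plus strand).
Sema3g, NEUROD: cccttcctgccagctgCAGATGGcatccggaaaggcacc
Slit3, NEUROD: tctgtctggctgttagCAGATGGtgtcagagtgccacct
Sema5a, NEUROD: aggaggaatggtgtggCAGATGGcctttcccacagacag
Sema4f, AP-1: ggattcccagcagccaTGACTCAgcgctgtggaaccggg
Ephb2, AP-1: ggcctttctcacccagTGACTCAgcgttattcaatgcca
Their peaks were of moderate height for distal peaks, with signals of 0.790 and 1.04 at Sema3g, 0.499 and 0.624 at Sema5a, and 1.13 and 1.22 at Sema4f, in replicates 1 and 2.

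At the promoters, the EGR letters had a larger share than over all genes, which was described without a test. Within 250 bp of the start, GCGTGGG matched at 18 of 58 open guidance promoters (31.0%, exact 95% interval 19.5 to 44.5), against 14.8% of all open promoters. Among open promoters with at least 30 CpGs the shares were 30.4% for guidance genes and 16% for all genes, the letters holding a CpG themselves. They were found at Dcc, Efna3, Efnb3, Epha2, Ephb1, Ephb2, Nrp2, Plxna1, Plxnb1, Plxnd1, Sema3g, Sema4c, Sema4d, Sema5a, Sema5b, Sema6a, Sema6b and Unc50. At 3 of these, Efna3, Ephb1 and Ephb2, the match lay under a footprint of both libraries. No such share was computed over all open promoters. The Efna3 and Ephb2 matches are shown, 79 bp before the start of Efna3 (chr3:89323030-89323058, plus strand) and 61 bp before that of Ephb2 (chr4:136836035-136836063, plus strand), with the EGR letters in capitals.
Efna3: gagcgcgccgcGCGTGGGcgacccatact
Ephb2: ctgagccgcggGCGTGGGgggagccgggg
Other motifs had low shares at guidance promoters and at all open promoters. CTCF matched at 0 of 58, against 1.04% of all. CRE and AP-1 matched at 2 each (3.45%), against 7.035% and 4.28%. The CRE matches, at Epha2 and Sema4c, and the AP-1 match at Unc5d lay under a footprint of both libraries. NEUROD matched at 3 (5.17%), against 5.65%, and no NEUROD match lay under a footprint of both. A count of 0 among 58 has an upper exact 95% limit of 6.16%.

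Footprints at the promoters were counted within 500 bp either side of the outermost start. The 68 windows held 504 footprints in replicate 1 and 393 in replicate 2, of which 221 overlapped between the libraries. Open guidance promoters had medians of 8.5 in replicate 1, 6 in replicate 2 and 3.5 shared, against 7, 6 and 4 for all open promoters. Ephb1, a receptor of B ephrins, had the most shared footprints, 11, with 14 in replicate 1 and 17 in replicate 2. Ephb2, Plxnb1, Plxna4, Unc5a, Unc5c and Sema6d had 8 each. Efnb2 had 13 in replicate 1 and 5 in replicate 2, and 5 were shared. Robo1 had 4 and 1, and none was shared. Efnb2 thus had fewer shared footprints than Ephb1, whose promoter signal was 2.14 and 2.87.

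The libraries shared about the same part of their peaks at guidance loci as elsewhere, but the balance of single-library peaks differed. Merging the peaks of both libraries in the 68 loci gave 1050 peaks, of which 558 (53.1%) were shared, against 52.2% on all of chromosomes 1 to 19. Replicate 1 alone had 209 and replicate 2 alone had 283. Over chromosomes 1 to 19 the order was reversed, with 40470 in replicate 1 alone and 31389 in replicate 2 alone, of 150454 merged peaks. The cause was not tested. Of the shared peaks, 99.1% lay within 2-fold between libraries after centring, against 99.2% over all peaks. The 5 peaks outside that range lay in the loci of Epha6 (0.295 in replicate 1 and 0.831 in replicate 2), Nrp1 (0.378 and 0.999), Sema3f (0.799 and 2.19), Sema3a (0.523 and 0.231) and Sema6d (0.562 and 0.274). They are single peaks, and the one in the Sema3f locus is the only one of them within 1 kb of a start. It lies downstream of the Sema3f gene body, in an exon of a non-coding transcript of Gnat1.

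**Figure D5:**
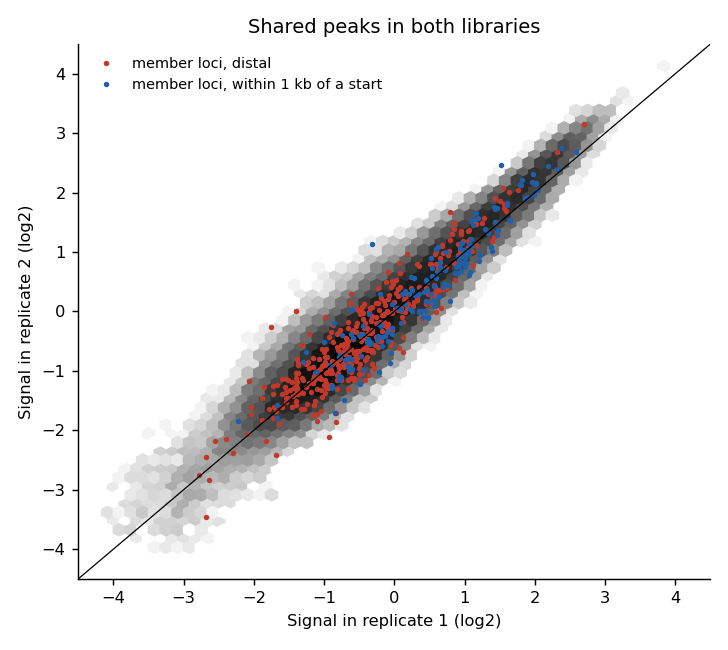
Signal of shared peaks in replicate 1 (horizontal axis, log2) and replicate 2 (vertical axis, log2), with red points for distal peaks and blue points for peaks within 1 kb of a start in guidance loci, and grey cells for all shared peaks of chromosomes 1 to 19. The guidance peaks lie along the diagonal with the rest, 99.1% of them within 2-fold after centring.

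Genes that work with the guidance receptors had a higher median promoter signal than the receptors and ligands themselves. A list of 60 co-receptors, other cues and intracellular effectors outside the naming rule was described in the same way. A shared promoter peak was found at 55 of 60 (91.7%), against 59.8% of all protein-coding genes, with a median signal of 2.72, against 1.78 for the guidance genes and 3.01 for all genes. Among the highest were Nck1, an adaptor that links receptors to actin, with 7.09 in replicate 1 and 8.13 in replicate 2, and Ptprs, a receptor phosphatase for proteoglycans, with 6.49 and 7.94. Adam10, a protease that cleaves ephrins, had 5.46 and 6.77, and Dpysl2, the semaphorin mediator also called collapsin response mediator protein, had 5.04 and 6.58. All 4 were above the median of all genes in both libraries.

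The loci of these partners held 417 distal peaks, with a median of 4.5 and a median length-matched percentile of 60.5, and 24 of 60 lay at or above the 75th percentile, against 23.5% of all genes. Draxin, Flrt1, Fyn, Nck2 and Ngef had no shared promoter peak at the outermost start. Of these, Fyn (4.12 and 4.95 in replicates 1 and 2), Nck2 (2.44 and 2.21) and Ngef (2.38 and 2.14) were open at another coding start, and Draxin, a secreted cue that binds Dcc, had 0.509 in replicate 2 only.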

How the data were processed

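DNase-seq calls of 2 libraries were used. Per the labels, reads were aligned to mm10; the aligner and the callers were not given in the sources used here. The authors called peaks on each library alone and deposited a larger and a smaller list with the signal of each peak, which is never negative and runs in whole multiples of a fixed step, 206 steps per unit of signal in replicate 1 and 208 in replicate 2. If a step is 1 cut scaled to 1 M cuts, these are the depths in M cuts; no other depth was used here. Footprints were deposited with their FDR as a fraction, 0.01 throughout, and the tables of local cut rate were deposited with a q-value (FDR, a form of adjusted p-value) below 0.05 for each stretch.

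The larger list was used. Genes came from GENCODE M21 and sequence from RefSeq's GRCm38.p6, the same build as mm10; coordinates are 1-based. A promoter window reached 500 bp either side of the outermost annotated end, and its signal was the highest peak reaching it. Peaks of both libraries overlapping by at least 1 bp were merged and called shared. Promoter sequences were printed for genes matched in RefSeq's promoter table (58 of 68). Python 3.11.15, pandas 2.3.3, numpy 2.4.6, scipy 1.17.1 and pysam 0.24.0 were used. The counting was tested on simulated data of 400 genes and recovered 400 promoter calls and 400 distal counts.

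With 1 group no test was made; values stand as means ± SD of 2 libraries beside all protein-coding genes. The members, partner genes, marker genes and motifs were chosen with earlier results of these data known. All genes of the rule are named; values are given for the 12 highest and 6 lowest promoters, the 12 loci with most and all with 0 distal peaks, the 8 highest and 6 lowest percentiles, the 5 least alike promoters, promoters of 1 library and each family's strongest distal peak. Of the partner genes, some of those with the highest values are named and others are not reported here.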

Additional observations from a re-analysis of the deposited data

How the results depend on the processing

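The number of genes with a shared promoter peak (58) lay between 53 and 61 under every alternative; the stricter list gave 53, without Epha1, Ntn1, Robo1, Robo3 and Sema3g. The median promoter signal (1.78) became 2.65 with the peaks in a window summed, against 3.55 for all genes summed in the same way. The distal count (390) fell to 185 with the stricter list and 214 with the upper 50% of peaks by signal, and was 596 to 650 without either replicate. The median percentile by locus length (66.4) was 76.6 with flanks of 50 kb, 62.0 with the gene body alone, and 69.9 to 75.5 without either replicate. Promoter footprints shared by both libraries numbered 221; 1 library alone gave 393 to 504. CTCF matches (6.17%) rose to 12% of distal peaks of the stricter list, and NEUROD matches (9.51%) to 13.9% in the whole peak. The cause was not tested for any of these. For all distal peaks the NEUROD share was 9.13%, below that of guidance loci, but 14.2% in the whole peak, above it; for CTCF and NEUROD in the stricter list no share over all distal peaks was computed. Of the 32 genes at or above the 75th percentile, 13 stayed there in all 8 alternatives. No paired analysis was possible because all libraries belong to 1 group.

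In guidance loci 46.9% of merged peaks were called in 1 library, against 47.8% on all of chromosomes 1 to 19; the part of depth in this was not tested. Alleles were not analysed here. Peaks in flanks were counted for the guidance gene whatever their nearest start.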

Other observations

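Of the 10 guidance genes without a shared promoter peak, 5 held the strongest distal peak of their family: Sema3b among class 3 semaphorins, Sema4a among class 4, Plxna2 among plexins, Ntn5 among netrins, and Unc5cl beside Unc50. At Sema3b that peak had a mean signal of 7.68 ± 1.65, at Unc5cl 3.58 ± 0.923, at Sema4a 3.23 ± 0.744, at Plxna2 2.33 ± 0.340 and at Ntn5 2.20 ± 0.379 (SD, n = 2 each). Unc5cl is not a guidance receptor and has only Unc50 beside it, Plxna2 and Sema4a were open at another coding start, and the Ntn5 peak lies 1.101 kb from the start. This was noticed in the values, has no test, and no share to compare it with was computed.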
